A study of Rattus norvegicus with 20 samples.

Results

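A set of 107 genes was lower after contusion of the spinal cord than in uninjured rats, and lower again after complete transection, in every library compared. The genes were found in RNA sequencing counts from the soleus, a calf muscle that works in standing. They are 107 of the 13398 genes that passed the low-count filter, out of 24613 Ensembl identifiers counted. A gene was taken when 3 conditions held. All 4 uninjured libraries lay above all 4 sedentary contusion libraries, and these above all 4 transection libraries. The mean over all 20 libraries was at least 1 CPM, the count of a gene relative to its library's total, scaled so that libraries can be compared (trimmed mean of M values, TMM). The uninjured mean was at most 4 times the transection mean. The members were therefore chosen on their values in 3 of the 5 groups, and those values are given here as a description without a test. The remaining 2 groups, contused rats that exercised, played no part in the order, though they entered the mean level and the scaling, and were read against it.

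All animals were Sprague-Dawley rats, with 4 libraries to a group. The design text describes muscle taken from every rat, but the labels number no animals. The p-values therefore set group differences against the variation between libraries of a group, estimated from all 20 libraries. The uninjured group had no spinal injury and no exercise. The injuries were made at the T2 level, either as a complete transection or as a 25 g-cm contusion. Some contused rats were left without exercise, some swam and some walked in shallow water, in both cases from 2.5 weeks after injury, on 5 days a week for 10 weeks. From 4 days after surgery all rats lived 2 to a small cage, which restricts movement, exercised groups included. The time from injury to tissue collection was 8.5 weeks in the transection group, 11.5 weeks for contusion alone and 13.5 weeks for both exercise groups, and the uninjured group carries the label 11.5 weeks. The order from uninjured to contusion to transection, and the step from contusion to exercise, therefore go with differences in time that cannot be told apart from injury or exercise, except that uninjured and contusion share a label and swimming and walking share a time.

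The soleus carries body weight during standing and is made mainly of slow, oxidative fibres. Their character depends on steady nerve activity and on load. When either is lost the muscle shrinks, and its slow contractile and mitochondrial programmes give way in part to those of faster fibres. An incomplete cord injury spares some descending fibres, so the hind limbs may regain weight support, while a complete transection leaves the limbs without descending control. The deposited counts carry identifiers only, and 0 of the 24613 identifiers could be paired with a gene symbol, so the members are described by level, size of change and behaviour, and 4 of them by identifier. For the same reason the labelled tissue could not be checked against marker genes. In whole muscle, fewer cells of a type and less RNA per cell cannot be told apart.

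Total counts ran from 21165832 to 39729930 per library. The members were well covered, with a median of 757 counts per gene and library. The lowest single value was 22 counts, and 11 members had fewer than 50 counts in some library. Libraries were less evenly composed after transection: the top 50 genes took up 43.9 to 46.6% of counts in uninjured, 46.2 to 51.3% in contusion and 53.7 to 60.2% in transection muscle. The scaling factor moved along with this, from 0.982 to 1.09 in uninjured and 0.711 to 0.953 in transection libraries, and its part in the order was not tested beyond the alternative scalings given below. Transection library 3 stood apart with 13837 genes detected, against 15037 to 16103 in the other 19 libraries.

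The members were genes of moderate to high abundance. Their mean levels ran from 1.64 to 6444 CPM with a median of 26.8 CPM, against a median of 15.2 CPM over the tested genes with a mean of at least 1 CPM. Of the 107 members, 72 lay above that median, 18 had a mean of at least 100 CPM and 22 a mean under 10 CPM. Together they took 2.00 to 2.77% of the counts in uninjured libraries, 1.26 to 1.66% in contusion libraries and 0.655 to 0.968% in transection libraries. Without any scaling between libraries, the share of counts held by the members followed the same order with no overlap. The most abundant member held a large part: with TMM scaling the mean uninjured sum was 22296 CPM, and 11035 CPM without it. With that gene left out and library totals alone, sums ran from 10725 to 12305 CPM in uninjured libraries. They ran from 7190 to 8842 CPM in contusion and 3656 to 4935 CPM in transection libraries. Both the shares and the sums were of genes that the order selected, so they are no independent evidence of it.

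On the log2 scale, most of the difference between uninjured and transected muscle lay in the second step for most members. Summed CPM did not show this, with means of 22296 in uninjured, 14976 in contusion and 8928 in transection libraries. Without the most abundant member these means were 11035, 8059 and 5020 CPM, where the 2 steps were of similar size. The uninjured mean was 1.32 to 3.96 times the transection mean, with a median of 1.99, and 53 members differed by at least 2-fold. From uninjured to contusion the median ratio was 1.29, from 1.09 to 2.01, and a single member reached 2-fold. From contusion to transection the median ratio was 1.52, from 1.17 to 2.71. On the log2 scale contusion accounted for a median of 38.6% of the whole difference, and in 15 of 107 members the contusion step was the larger. The rule places contusion between the other groups but does not fix where.

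**Figure D1:**
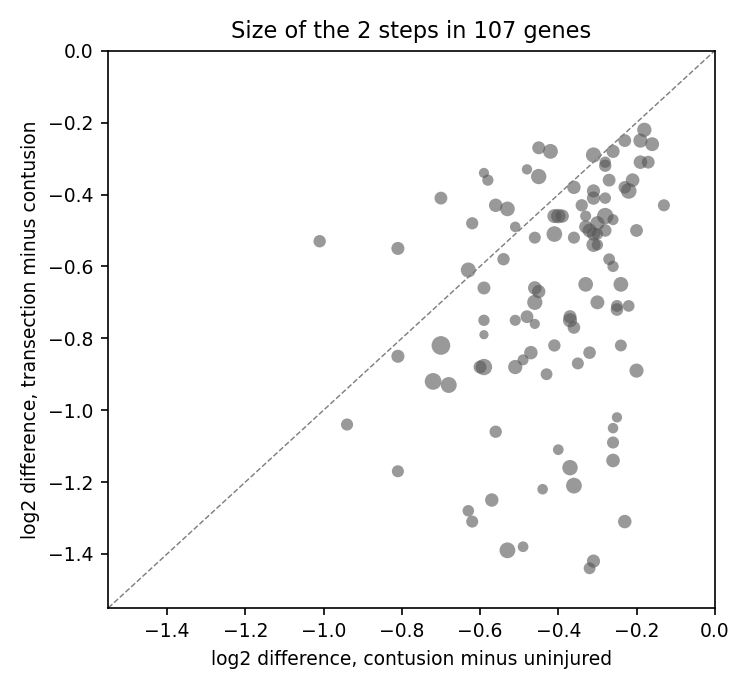
Log2 difference of group mean CPM from uninjured to contusion (x axis) and from contusion to transection (y axis) for the 107 members, with larger points for more abundant genes and a dashed line where both steps are equal. Most points lie below the line, where the step to transection is the larger, and 15 lie above it.

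**Figure D2:**
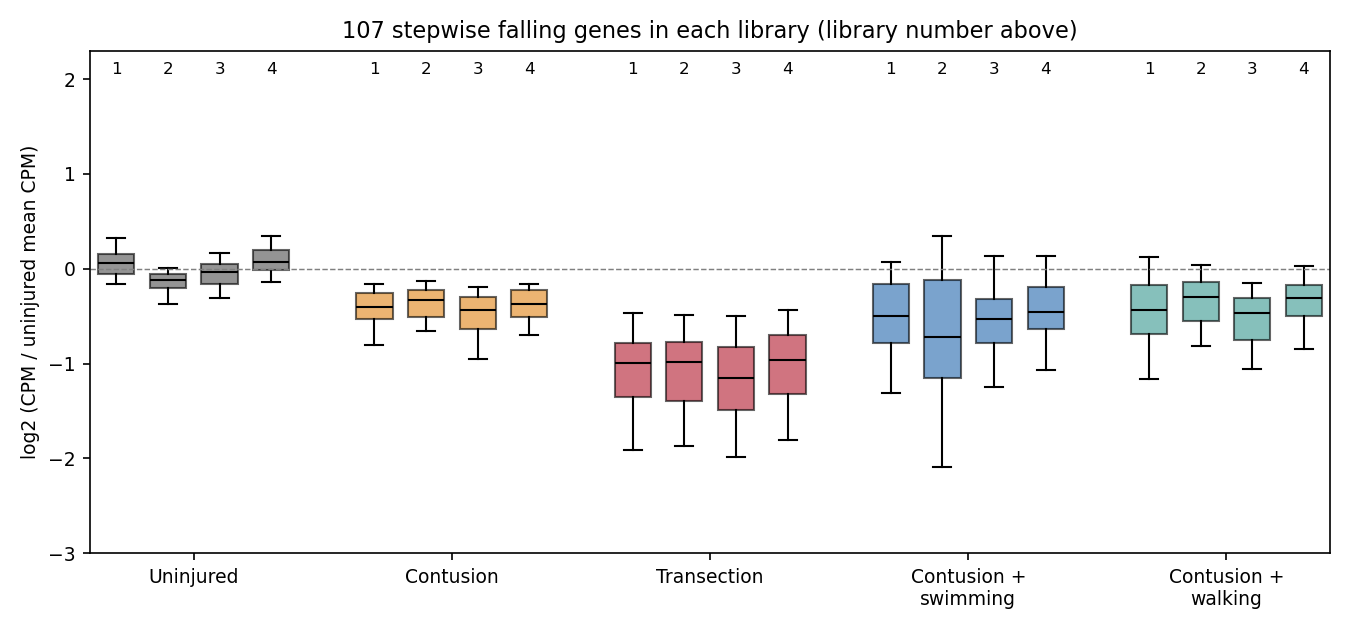
Log2 ratio of each member's CPM to its uninjured mean (y axis) in each of the 20 libraries (x axis, 4 per group); the line in each box is the median over 107 genes, the box the middle of the distribution between quartiles, and the whiskers reach the 5th and 95th percentiles. The medians of uninjured, contusion and transection libraries are set apart by the rule, those of swimming lie just below contusion under this (TMM) scaling, though they overlap it with library totals alone, and those of walking overlap it.

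The groups lay close together in most members. The gap between groups is given as the lowest library of the higher group over the highest of the lower one, at the narrower of the 2 steps. This gap was less than 5% in 60 members, and it reached a ratio of 1.2 in 3. The narrowest gaps among members were ratios of 1.0003, 1.0008 and 1.0009, while the nearest genes outside, which met both other limits, had ratios of 0.9995, 0.9993 and 0.998. At the limit on level the lowest members had means of 1.64, 3.58 and 3.60 CPM, and 7 genes in the same order were left out, the nearest at 0.943, 0.939 and 0.723 CPM. At the limit on fold the members nearest to it had ratios of 3.96, 3.95 and 3.81 between uninjured and transection, and 34 genes were left out, beginning at 4.05, 4.05 and 4.19. In all, 148 of the 13398 tested genes (1.10%) were in falling order before these limits, and 0.799% after them. The opposite order, under the same limits, was met by 93 genes.

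The number of members changed with the libraries used and with the scaling. It was 189 without uninjured library 2, 164 without contusion library 2 and 182 without contusion library 3. Of the 107, these kept 102, 107 and 107 in that order. Leaving out a library of a group in the rule relaxes the rule, so a rise was largely built in. Scaling by library totals alone gave 329 genes, with 92 of the 107 among them. Without transection library 3 and swimming library 2 together the number was 148, with 104 of the 107 kept.

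The most abundant member was ENSRNOG00000010524, at a mean of 6444 CPM. Its uninjured libraries stood at 14463, 8805, 7933 and 13844 CPM, its contusion libraries at 7503, 7423, 5576 and 7165 CPM, and its transection libraries at 2786, 3792, 4070 and 4984 CPM. The swimming libraries were scattered, at 3871, 895, 7491 and 4233 CPM. The walking libraries stood at 3490, 6746, 6272 and 7547 CPM. Swimming library 2 was below every transection library and swimming library 3 at the level of contusion, so the swimming group overlapped contusion, transection and walking. Group means were 11261 ± 3368 CPM in uninjured, 6917 ± 906 in contusion, 3908 ± 905 in transection, 4123 ± 2698 in swimming and 6014 ± 1763 in walking muscle (SD, n = 4 each). Neither exercise group differed from contusion beyond this spread: the log2 difference was -0.75 for swimming (SE 0.40, edgeR quasi-likelihood test, adjusted p = 0.279) and -0.20 for walking (SE 0.40, adjusted p = 1.00).

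The summed level of the members was also taken with this gene left out. The summed CPM of the other members was 11035 ± 1125 in uninjured, 8059 ± 436 in contusion, 5020 ± 260 in transection, 6818 ± 380 in swimming and 7694 ± 703 in walking libraries (SD, n = 4 each). The 4 swimming values, 6324 to 7181 CPM, all lay below the lowest contusion value of 7437 CPM and above the highest transection value of 5178 CPM. The separation from contusion depended on the scaling: with library totals alone the swimming sums ran from 6769 to 8219 CPM and overlapped the contusion sums of 7190 to 8842 CPM, while transection reached 4935 CPM. As an unscaled share of counts, the members with this gene included took 0.773 to 1.56% after swimming and 1.25 to 1.58% after walking, both of which overlapped contusion. The walking values, 6925 to 8392 CPM, overlapped both contusion and swimming. Such sums are weighted towards abundant members.

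**Figure D3:**
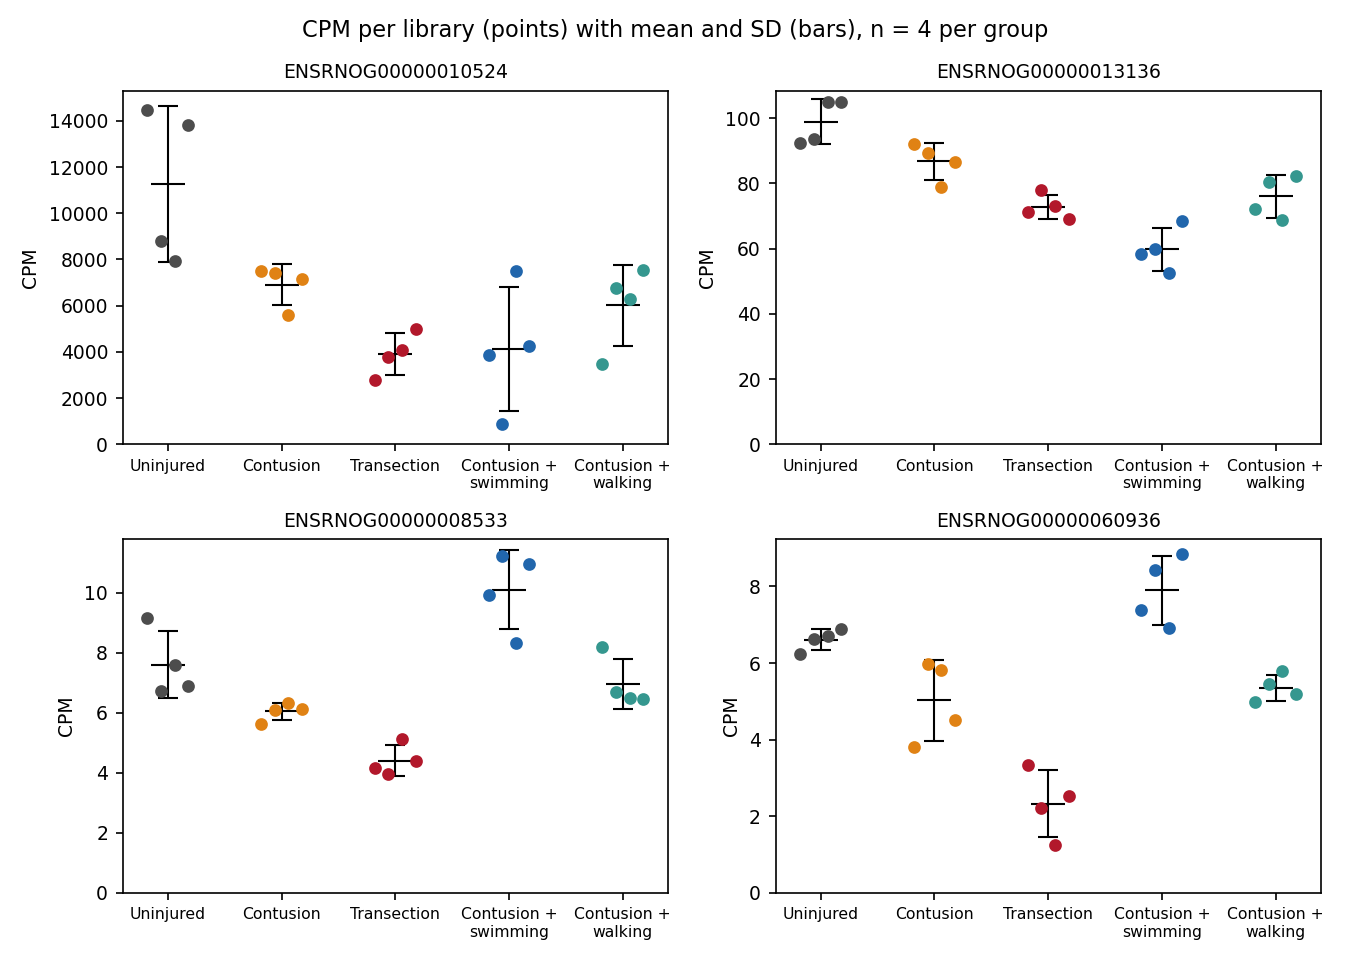
CPM in each library (points, y axis from 0) with the mean and SD (bars, n = 4) in the 5 groups (x axis) for the 4 members given by identifier. ENSRNOG00000010524 is widely scattered after swimming, all 4 swimming libraries of ENSRNOG00000013136 lie below transection, and in ENSRNOG00000008533 and ENSRNOG00000060936 the swimming mean lies above the uninjured mean.

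After swimming the members spread over the whole order. The swimming mean lay between the contusion and transection means in 58 members, between uninjured and contusion in 22, above uninjured in 15 and below transection in 12. On a log2 scale with the transection mean at 0% and the uninjured mean at 100%, the median place after swimming was 45.2%, with the middle of the distribution from 20.0 to 81.1%. Contusion had a median place of 61.4%, from 53.7 to 68.0%. Below the contusion mean stood 70 of 107 members after swimming, or 65.4%, against 48.8% of all tested genes. Scaling by library totals alone gave 49 members below, and moved the median log2 difference of all tested genes from contusion from 0.01 to 0.19.

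After walking the members stayed around the level of contusion. The walking mean lay between uninjured and contusion in 58 members, between contusion and transection in 47 and below transection in 2, and above uninjured in 0. The median place was 63.7%, from 45.9 to 79.6% between quartiles. Below the contusion mean stood 49 of 107 members, or 45.8%, against 48.8% of all tested genes, and 37 with library totals only. All 4 walking libraries lay above all 4 transection libraries in 71 members (66.4%, all tested genes 11.9%) and below all 4 uninjured libraries in 52 (48.6%, all tested genes 5.09%). For swimming these numbers were 50 (46.7%, all tested genes 13.3%) and 64 (59.8%, all tested genes 11.6%). Past the ends, 0 members had all walking libraries below transection (all tested genes 10.2%) and 0 had them all above uninjured (4.41%). The rule sets the uninjured and transection libraries of the members far apart, so these shares are not read against those of all genes. Since the contusion and uninjured libraries used to draw these boundaries are those that chose the members, the places carry no test.

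**Figure D4:**
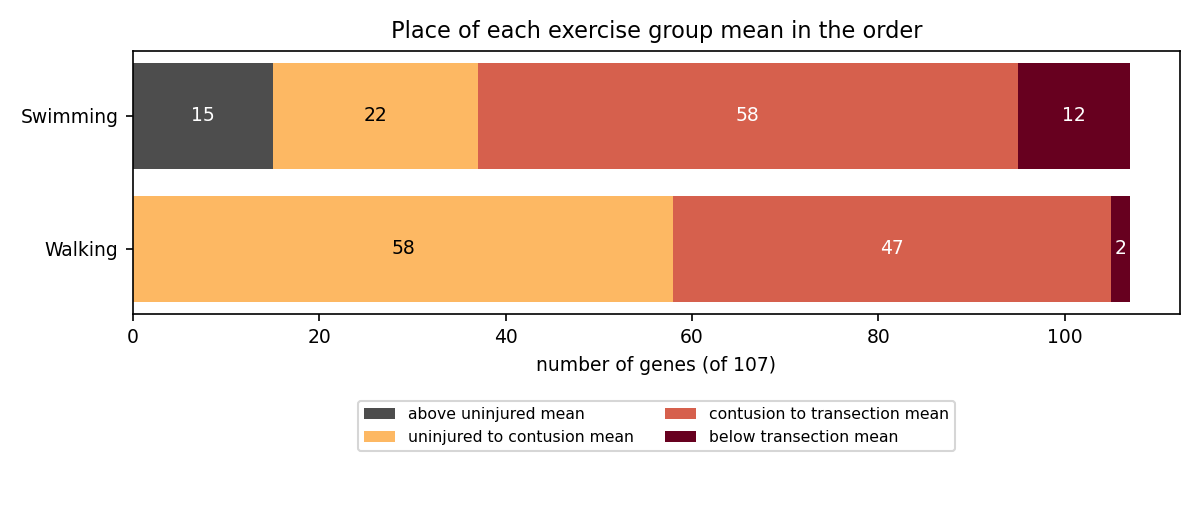
Number of the 107 members (x axis) whose swimming or walking group mean fell in each interval of the order, which is set by the uninjured, contusion and transection means. Swimming means reach past both ends of the order, with 15 above uninjured and 12 below transection, while all walking means but 2 lie within it. Over all tested genes, 31.8% of swimming means lay above the uninjured, contusion and transection means and 28.1% below them. For walking these were 22.1% and 19.6%.

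Single libraries varied around these group means. A single swimming library lay below all 4 contusion libraries in 43 to 62 of the 107 members and above all of them in 24 to 36. For walking the ranges were 18 to 57 and 16 to 50, with walking libraries 1 and 3 at 41 and 57 and libraries 2 and 4 at 18 each. The same counts were not taken over all tested genes. The rule holds the members' contusion values close together, so a library falls outside them more readily. These counts are therefore not read as an effect of exercise. The median log2 ratio to the uninjured mean was -0.50, -0.72, -0.53 and -0.46 in the swimming libraries, and -0.44, -0.30, -0.47 and -0.31 in the walking libraries. In contusion it was -0.40, -0.33, -0.43 and -0.37, so all 4 swimming libraries lay below all 4 contusion libraries and the walking libraries overlapped them. With library totals alone swimming and contusion overlapped, at -0.35, -0.70, -0.52 and -0.32 in swimming and -0.58, -0.34, -0.55 and -0.44 in contusion libraries. Swimming library 2 was the lowest swimming library in 53 members, and the lowest in 32.5% of all tested genes. Walking library 3 was the lowest walking library in 49 members, against 19.8% of all tested genes.

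Swimming against walking is the comparison of groups that the order did not use, and both were taken at 13.5 weeks. In the members swimming was lower by a median log2 value of 0.13 (a difference of -0.13), from -0.29 to 0.05 between quartiles, while the median of all tested genes was 0.01. With library totals alone these medians were -0.02 and 0.12, and the members' median minus that of all genes was -0.14 under either scaling. A change of scaling shifts all genes by about the same amount, so this sameness was built in and is no further evidence. Lower after swimming were 73 of 107 members, or 34 higher, and 48.4% of all tested genes were lower. No member passed by edgeR's quasi-likelihood test: 0 of 107 had an adjusted p below 0.05, with a smallest value of 0.160, where 0.00746% of all tested genes were called, which is 1 gene. At an unadjusted p below 0.05 stood 27 members, 20 lower and 7 higher, or 25.2% against 15.3% of all tested genes. Those lower were 18.7% of members, against 7.31% of all genes. The spread of a gene is estimated from all 20 libraries, including those that chose the members. The median SE was 0.15 in members and 0.20 in all tested genes, so these shares are not like for like. The Wald test of DESeq2 called 4 members, 3 lower and 1 higher, and edgeR without walking library 1 called 7, of which 6 were lower. Over all genes these settings called 140 and 298, against the 1 given above. The swimming and walking libraries did not overlap, with swimming the lower, in 6 members, or 5.61% against 3.49% of all genes, and with swimming the higher in 3, or 2.80% against 3.08%.

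Against contusion alone, 10 members fell after swimming and 1 rose (edgeR quasi-likelihood test, adjusted p below 0.05 over all 13398 genes). Called members were 10.3% of the set, where 4.48% of all tested genes were called; those that fell were 9.35%, where the background is 2.25%, and the 1 that rose 0.935%, where it is 2.22%. The contusion libraries also chose the members, which holds their spread down: the median coefficient of variation of a member was 7.45% in contusion libraries and 13.9% over tested genes of at least 1 CPM. In swimming libraries, which chose nothing, it was 17.3% and 18.8%. The shares called are therefore not like for like with those of all genes. The median log2 difference of the members was -0.13, from -0.36 to 0.16 between quartiles, and 0.01 over all tested genes. At an unadjusted p below 0.05 stood 43 members, or 40.2% against 22.6% of all tested genes, with 29 lower (27.1% against 11.0%) and 14 higher (13.1% against 11.6%). All 4 swimming libraries were lower than all 4 contusion libraries in 20 members, or 18.7% against 6.81% of all tested genes, and higher in 9, or 8.41% against 7.38%.

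The 10 members that fell did so by -0.47 to -1.14 on the log2 scale, with a median of -0.61 and adjusted p from 0.0163 to 0.0425. Their mean levels were 26.3 to 303 CPM, and none was a weakly expressed gene. In uninjured muscle they stood 1.36 to 3.54 times above transection. In 6 of the 10 the swimming mean was below the transection mean, and in 8 all 4 swimming libraries lay below all 4 contusion libraries. The swimming mean was below the walking mean in all 10, by -0.31 to -0.73 on the log2 scale, though 0 of these differences passed (edgeR, adjusted p below 0.05). The 10 were picked because the same swimming libraries were low against contusion. Both this direction and the lack of overlap with contusion therefore follow in part from that choice. Walking differed from contusion in the same genes by -0.66 to 0.01 with a median of -0.14, and 0 of them passed.

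The call of these members depended on which libraries were used. With edgeR, 0 members were called when contusion library 1 was left out, and 4 when contusion library 2, contusion library 4 or swimming library 2 was. Calls over all tested genes dropped with them, from 600 to 1, 65, 54 and 108 in that order. Under scaling by library totals 3 were called, 2 lower and 1 higher, among 299 of all genes. The median of the members moved to 0.05, and that of all tested genes moved with it, from 0.01 to 0.19. The members' median minus that of all genes was -0.14 under both scalings, which a shift common to all genes leaves unchanged by construction. DESeq2 called 20 members, 14 lower and 6 higher, among them all 11 called with edgeR, and 1203 of all genes.

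ENSRNOG00000013136 had the smallest p of any member for swimming against contusion. Its uninjured libraries stood at 92.2, 93.5, 105 and 105 CPM and its contusion libraries at 92.1, 89.3, 78.9 and 86.6 CPM, so these groups were parted by a ratio of 1.0009. Transection libraries stood at 71.3, 77.8, 72.9 and 69.0 CPM. Swimming libraries stood at 58.2, 60.0, 52.6 and 68.5 CPM, below every transection library, and this was the only member of which that was true (0.935%, all tested genes 11.9%). Walking libraries, at 72.2, 80.4, 68.9 and 82.4 CPM, overlapped transection and contusion. The log2 difference of swimming from contusion was -0.54 (SE 0.10, edgeR adjusted p = 0.0163), and that of walking was -0.19 (SE 0.10, adjusted p = 1.00). Swimming and walking differed by -0.34 (SE 0.10, edgeR adjusted p = 0.175). The call against contusion was lost without contusion library 1 (-0.53, edgeR adjusted p = 0.0605) and with library totals only (-0.35, 0.0975); its adjusted p lay between 1.22e-04 and 0.0975 across the alternatives.

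ENSRNOG00000008533 was the 1 member that rose after swimming, and is given because it was alone in that. Uninjured libraries stood at 9.18, 6.74, 7.59 and 6.91 CPM, contusion libraries at 5.63, 6.10, 6.32 and 6.14 CPM and transection libraries at 4.17, 3.96, 5.12 and 4.38 CPM. Swimming libraries stood at 9.94, 11.2, 8.32 and 10.9 CPM and walking libraries at 8.19, 6.68, 6.49 and 6.46 CPM. All 4 swimming libraries lay above all contusion and walking libraries, and 3 of them above all uninjured libraries. The log2 difference from contusion was 0.74 after swimming (SE 0.14, edgeR adjusted p = 0.0172) and 0.20 after walking (SE 0.15, adjusted p = 1.00). Without contusion library 1 the difference was 0.69 and did not pass (edgeR adjusted p = 0.0690). Swimming exceeded walking by 0.54 (SE 0.14), which did not pass with edgeR (adjusted p = 0.167). It passed with DESeq2 (0.0308) and with edgeR without walking library 1 (0.0384). In the remaining 26 of 28 alternatives it did not pass, with an edgeR adjusted p of up to 0.490.

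A further member, ENSRNOG00000060936, was the only one with all 4 swimming libraries above all 4 uninjured libraries, and was picked out after its values were seen. It stood at 6.61 ± 0.273 CPM in uninjured, 5.02 ± 1.05 in contusion, 2.33 ± 0.867 in transection, 7.90 ± 0.901 in swimming and 5.35 ± 0.350 in walking muscle (SD, n = 4 each). Its swimming libraries ran from 6.91 to 8.86 CPM and its uninjured libraries from 6.24 to 6.88 CPM, so the groups were narrowly parted. Swimming exceeded contusion by a log2 value of 0.65 (SE 0.21), which did not pass (edgeR adjusted p = 0.0689) but did with DESeq2 (0.0147) and, with edgeR, without transection library 3 (0.0242). Such a gap above uninjured was found in 11.5% of all tested genes and in 0.935% of members, whose uninjured libraries are high by the rule.

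Walking against contusion gave 0 called members with edgeR, and 0 of all 13398 tested genes. DESeq2 called 0 members as well, and so did edgeR with any single library left out. At an unadjusted p below 0.05 stood 3 members, or 2.80% against 3.18% of all tested genes, with 2 lower (1.87% against 2.02%) and 1 higher (0.935% against 1.16%). The members' median log2 difference was 0.02, from -0.13 to 0.12 between quartiles, and the median SE of a member was 0.15. All 4 walking libraries lay below all 4 contusion libraries in 5 members, or 4.67% against 1.87% of all genes, and above them in 3, or 2.80% against 1.04%. The tight contusion values of the members, noted above, touch these shares too.

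**Figure D5:**
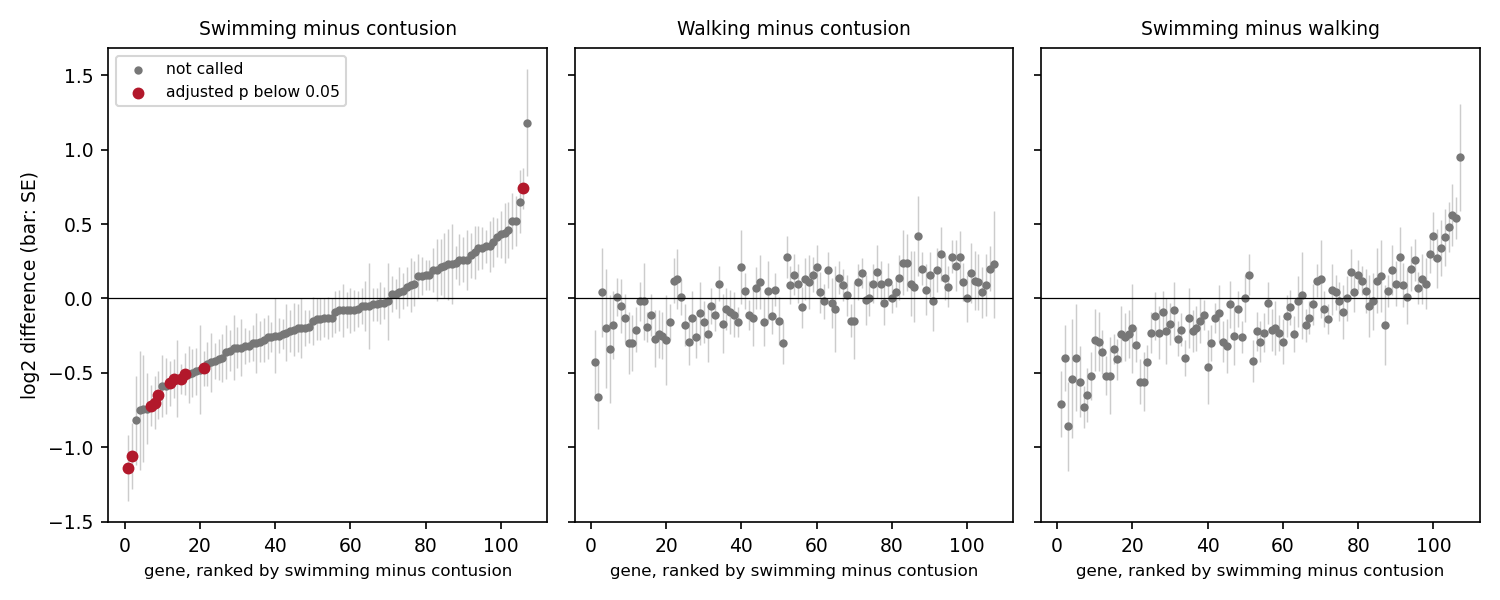
Log2 difference (y axis, bars show the SE) of each of the 107 members for swimming minus contusion, walking minus contusion and swimming minus walking, with members ranked on the x axis by swimming minus contusion in all 3 panels. The 11 members that passed (red) are 10 with negative and 1 with positive values in the left panel; panels share libraries, so a slope common to them is not independent evidence.

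The members at the 2 ends of the order after swimming differed in abundance, while those in its middle did not. The 22 members between uninjured and contusion and the 58 between contusion and transection had median levels of 32.5 and 32.1 CPM. Their median log2 differences of swimming from contusion were 0.19 and -0.24. The 15 members whose swimming mean was above uninjured had a median level of 12.5 CPM and a median log2 difference from contusion of 0.43. The 12 members whose swimming mean was below transection had a median level of 59.4 CPM and a median difference of -0.48; 6 of them passed. These 12 were also the ones with a shallow fall, with a median ratio of 1.53 between uninjured and transection, against 2.06 to 2.16 in the other positions. Walking differed from contusion by medians of 0.11 and -0.17 in the 15 and the 12 genes. Whether a small ratio, with less room between the ends of the order, bears on these places was not tested. The 15 members above uninjured had a median ratio of 2.09. The groups were formed from the swimming values and carry no test.

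All tested genes showed a gradient with abundance in the same direction as the members, though a smaller one. With tested genes divided into 3 equal classes of mean level, the median log2 difference of swimming from contusion was 0.15, 0.03 and -0.10 from the lowest to the highest class over all genes, and 0.22, -0.08 and -0.25 over the 7, 41 and 59 members in those classes. For swimming against walking the medians were 0.13, 0.03 and -0.07 over all genes, and 0.12, -0.08 and -0.21 over members. For walking against contusion they were 0.05, 0.01 and -0.02 over all genes, and 0.11, 0.08 and -0.03 over members. In the upper 2 classes the members thus stood below all genes of their class after swimming, and in the lowest, with 7 members, they did not for swimming against contusion. The part of abundance in the members' values was not tested further.

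The 12 most abundant members, at 199 to 6444 CPM, showed the lean towards lower values after swimming more than the whole set. In 10 of these 12 the level after swimming was below contusion, with a median log2 difference of -0.33 from a range of -0.75 to 0.23, and 1 of them passed. Against walking, 11 of the 12 were lower after swimming. Walking left them near contusion, at a median of -0.07, from -0.34 to 0.42. The next most abundant member after ENSRNOG00000010524 had swimming libraries at 548, 122, 850 and 664 CPM against 677 to 1075 CPM in contusion, so swimming library 2 was again far below the others, and its difference did not pass.

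The 8 members with the largest ratio between uninjured and transection, 3.39 to 3.96, gave a similar result. Swimming was below contusion in 7 of the 8, with a median log2 difference of -0.35 from a range of -1.14 to 0.09, and 1 passed. All 8 were lower after swimming than after walking, and 0 of those differences passed. Walking differed from contusion by a median of -0.01, from -0.43 to 0.18. These genes had means of 5.44 to 338 CPM, and 1 of them is also among the 12 most abundant.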

How the data were processed

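RNA sequencing was analysed in 20 soleus libraries, 5 groups of 4, assigned from the labels. The authors deposited whole-number counts per gene, not normalised. Poly-A RNA was made into stranded libraries, per the labels' protocols. Per the submitters' processing notes, FastQC 0.10.1, HTSeq and rn6 were used; aligner, annotation and strand setting are not given in the sources used here. Overlapping genes and near-identical copies may share counts.

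Counts were filtered with filterByExpr (minimum count 10, 5 groups) and TMM-scaled in edgeR 4.0.16 under R 4.3.3. All 20 libraries entered a quasi-likelihood fit with a mean per group and a robust prior (15 residual degrees of freedom). P-values were adjusted by Benjamini-Hochberg over all 13398 genes and called below 0.05. The SE of a log2 difference was taken from it and the F statistic; group positions use mean CPM. Within groups, 30 pairs of libraries differed by 28.0 to 549 in chi-square per degree of freedom, so none was counted as a copy. The fit and the rule were tested on simulated data. Figures used matplotlib 3.10.9.

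The members and lists were chosen with earlier results of these data known. The 32 gene lists needed symbols and could not be applied, since the name table, with 47357 genes, gave no Ensembl identifier. Identifiers given in the text are the most abundant member, the member with the smallest p for swimming against contusion, and 2 picked after their values were seen. Alternatives were median-of-ratios scaling, library totals, no filter, other limits in the rule, the replicate number as a block, DESeq2 1.42.0, the compared groups alone, each library left out, and transection library 3 with swimming library 2 left out; a prior that is not robust, positions with a library left out, single-library values under library totals and the number of members without those 2 libraries were added after seeing the data.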

Additional observations from a re-analysis of the deposited data

Results flagged for a closer look

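Library measures, and the CPM of the 4 members given by identifier, were screened for a value far from the rest of its group. Of 55 groups of 4 values, 6 had one, and chance alone would give about 2.75. The members' summed level in contusion library 3 was 13013 CPM, the next lowest 15393. Without the most abundant member, the sum in transection library 1 was 4632 CPM, the next lowest 5129. The members' median log2 ratio to the uninjured mean was -1.15 in transection library 3, the next lowest -0.99. ENSRNOG00000008533 stood at 8.19 CPM in walking library 1, the next highest 6.68. Walking library 4 held 36604027 counts, the next highest 23665744, and uninjured library 4 had a scaling factor of 0.982, the next lowest being 1.08.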

How the results depend on the processing

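With library totals only, the order held 329 genes, swimming against contusion called 3 members (299 of all genes) at a median of 0.05 (all genes 0.19), and swimming against walking had a median of -0.02 (all genes 0.12). For swimming against contusion, 11 called members (600 of all genes) became 20 (1203) with DESeq2, 5 (322) with the compared groups alone and 7 (634) without transection library 3 and swimming library 2. DESeq2 called 4 members (140) for swimming against walking. With the replicate number as a block, 7 members (343 of all genes) were called for swimming against contusion, and no other count of called members changed. Same-numbered libraries of swimming and contusion correlated at 0.05 to 0.43 in their deviations from group means, 4 of 8 best with their own number. For swimming and walking the values were -0.10 to 0.20, 1 of 8, and for walking and contusion -0.14 to 0.26, 3 of 8. The labels give only a number, and whether same-numbered libraries share anything else was not tested. With each of 20 libraries left out, the order held 108 to 189 genes, swimming against contusion called 0 to 16 members (medians -0.16 to -0.09), swimming against walking 0 to 7 (-0.20 to -0.11) and walking against contusion 0 (-0.02 to 0.05). The members below contusion numbered 66 to 72 after swimming and 37 to 57 after walking. ENSRNOG00000060936, at 0.09 for walking against contusion, was at -0.03 without contusion library 1, and at up to 0.18 with another library left out (contusion library 2), none past the threshold. The cause of these changes was not tested. The order held 112 genes with median-of-ratios scaling, 119 with no filter, 99 at a mean of at least 5 CPM and 141 with no limit on the ratio. Identifiers without symbols limit what can be said of the genes.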
